A study of Citrullus lanatus with 30 samples.

Results

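Rind labelled R4 was profiled by RNA-seq in fruit of 30 days after pollination (DAP) and of 20 DAP, and the transcripts of the 2 ages are compared here. The older group, R4_RF, and the younger group, R4_CT, hold 2 libraries each, 4 of the 30 libraries of the series, and they were chosen by their labels and not by measured values. All 4 come from watermelon (Citrullus lanatus) cultivar 97103, as do 2 libraries of a second rind, R2_RF, at 30 DAP. Flesh of the same cultivar serves as context, with 3 libraries per stage, which the labels call PD at 0 DAP, SW at 5 DAP, BW at 10 DAP, CT at 20 DAP and RF at 30 DAP. A further 3 libraries of 20 DAP flesh, labelled Mock, carry the genotype label wild type. By its name Mock is a control, and the series also holds 3 libraries of 20 DAP labelled 5_Aza. Mock flesh may therefore have been handled otherwise than stage flesh and rind, which was not tested. The labels give no treatment for R4, do not say what separates R4 from R2, and do not say whether libraries came from separate fruits. The p-values below set a difference against the spread among libraries, which may be technical. They therefore do not extend to other fruits. For the rind libraries the source is given as rind, whereas the tissue label and the protocol text name flesh, and no marker gene of either tissue could be looked up, because the files name each locus by position alone.

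The rind is the firm outer part of a watermelon fruit and encloses the flesh. In red-fleshed watermelon the flesh accumulates sugars and carotenoids and softens as it ripens, while the rind stays firm and pale. In textbook accounts, growth of the young fruit rests on cell division and expansion, and ripening follows with a change in the set of active genes. Which of these processes the loci below take part in is not known from the files, so they are described by level, by age and by what the same loci did in flesh.

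Levels are FPKM, fragments scaled to locus length and library total, as the authors deposited them for 22596 loci. FPKM were available without counts, so the read depth of a library is unknown and no counting interval is given. Summed FPKM ran from 868774 to 878964 in R4_RF and from 866757 to 882245 in R4_CT. Loci at 1 FPKM or more numbered 15465 and 15503 in R4_RF, against 16075 and 16130 in R4_CT. On the log2(FPKM + 1) scale, replicates correlated at 0.9967 in R4_RF and at 0.997 in R4_CT, and libraries of the 2 ages at 0.966 to 0.9668. Replicates differed little, with a median coefficient of variation (loci at 10 FPKM or above) of 3.37% in R4_RF and 5.00% in R4_CT. Positions are as given in the files, on sequences named WM97pbV1, and their place within gene models was not analysed here.

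At 30 DAP the R4 rind had lost more transcripts than it had gained. Of 16232 loci tested, 1315 fell by at least 2-fold at 30 DAP (8.10% of all tested) and 521 rose by as much (3.21%; limma on log2(FPKM + 1), called at an adjusted p under 0.05). The excess of falls grew with size, with 336 loci lower against 85 higher at 4-fold or more, and 23 lower against 5 higher at 16-fold or more. Without a fold limit the directions were close to balanced, with 4531 loci lower (27.9%) and 4241 higher (26.1%), and the median log2 fold change was 0.01. The loci that fell by at least 2-fold had a median of 2.75 FPKM in R4_RF and 12.3 FPKM in R4_CT, next to 7.80 FPKM in R2_RF and 2.20 FPKM in Mock, and the loci that rose by as much a median of 29.6 FPKM in R4_RF and 8.51 FPKM in R4_CT, next to 8.11 FPKM in R2_RF and 30.0 FPKM in Mock. By share of the summed FPKM, the loci that fell by at least 2-fold held 2.53% in R4_RF and 8.88% in R4_CT, and those that rose held 6.70% in R4_RF and 2.24% in R4_CT. Both R4_RF libraries lay above both R4_CT libraries at 6240 tested loci and below both at 6072, together 75.9% of the loci tested, against the 54.0% called. With 2 libraries per age, the test borrows its spread from other loci and from R2_RF.

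**Figure D1:**
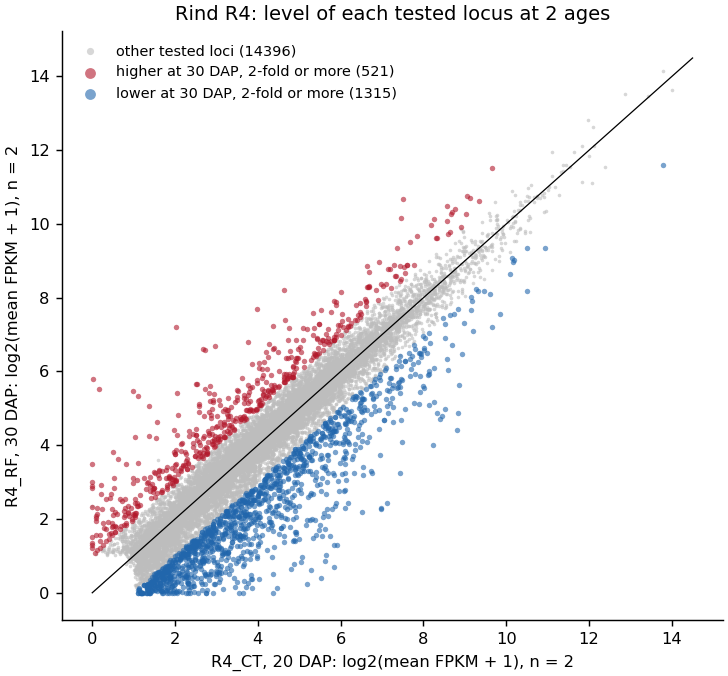
Level of each of the 16232 tested loci in rind R4, as log2(mean FPKM + 1) over 2 libraries, at 30 DAP (vertical axis) against 20 DAP (horizontal axis). The loci called by limma with a 2-fold change or more, 521 higher and 1315 lower, are coloured, the line marks equal levels, and most of the lower loci lie in the lower part of the range of levels.

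Some loci were near silence at 1 age and at a moderate level at the other. In both R4_RF libraries 21 loci were under 1 FPKM that stood at 10 FPKM or more in both R4_CT libraries, and 5 loci showed the reverse. With a limit of 1 FPKM for both states, 633 loci passed it in both R4_CT libraries and in neither R4_RF library, and 177 showed the reverse. In all, 15853 loci passed it in both R4_CT libraries and 15223 in both R4_RF libraries. A locus close to 1 FPKM at both ages can fall in these counts. No locus called in either direction had overlapping libraries of the 2 ages.

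Among loci whose higher group averaged 10 FPKM or more, the largest rise was at chr11:753705-756885, a locus of 3181 bp. It stood at 52.5 and 56.6 FPKM in the R4_RF libraries, against 0 and 0.036 FPKM in the R4_CT libraries (log2 fold change 5.77 ± 0.14 SE, limma adjusted p = 1.53e-13). With a pseudocount of 0.1 in place of 1, that log2 fold change was 8.87. The locus was listed at 0 in both R2_RF libraries and at 146 ± 4.89 FPKM in Mock flesh (SD, n = 3). In stage flesh it was at 23.3 ± 2.11 FPKM at 30 DAP and at 0.263 ± 0.039 FPKM at 20 DAP (SD, n = 3 each). The transcript was thus found in R4 rind and flesh of 30 DAP and in Mock flesh, and was listed at 0 in the R2 rind of 30 DAP.

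A rise of like size had the opposite partner. At chr2:2318647-2319172 the level was 46.5 and 44.0 FPKM in R4_RF, against 0.099 and 0.135 FPKM in R4_CT (log2 fold change 5.37 ± 0.08 SE, limma adjusted p = 1.98e-15). In R2_RF rind the same locus was at 328 ± 11.6 FPKM (SD, n = 2), and in Mock flesh at 0.050 ± 0.087 FPKM (SD, n = 3). Stage flesh averaged 244 FPKM there at 0 DAP (2 libraries), 13.7 FPKM in SW, 0.696 FPKM in BW, 4.12 FPKM in CT and 0.659 FPKM in RF. The transcript was thus abundant in the youngest flesh and in both rinds of 30 DAP.

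The largest falls left levels under 1 FPKM. At chr5:28240188-28241114 the level was 0.500 and 0.148 FPKM in R4_RF, against 47.4 and 43.5 FPKM in R4_CT (limma, adjusted p = 7.88e-13, log2 fold change -5.14 ± 0.14 SE). The flesh stages SW and BW averaged 28.6 and 30.3 FPKM there, and CT averaged 1.44 FPKM. At chr8:21133853-21136470 the level was 0.586 and 0.660 FPKM in R4_RF, against 55.7 and 56.4 FPKM in R4_CT (log2 fold change -5.14 ± 0.09 SE, limma adjusted p = 8.65e-15). The R2_RF rind still held 38.8 ± 0.21 FPKM of it (SD, n = 2), and it was listed at 0 in all 3 Mock libraries. In flesh of 20 and 30 DAP (CT, Mock and RF) both loci that fell averaged 1.44 FPKM or less.

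**Figure D2:**
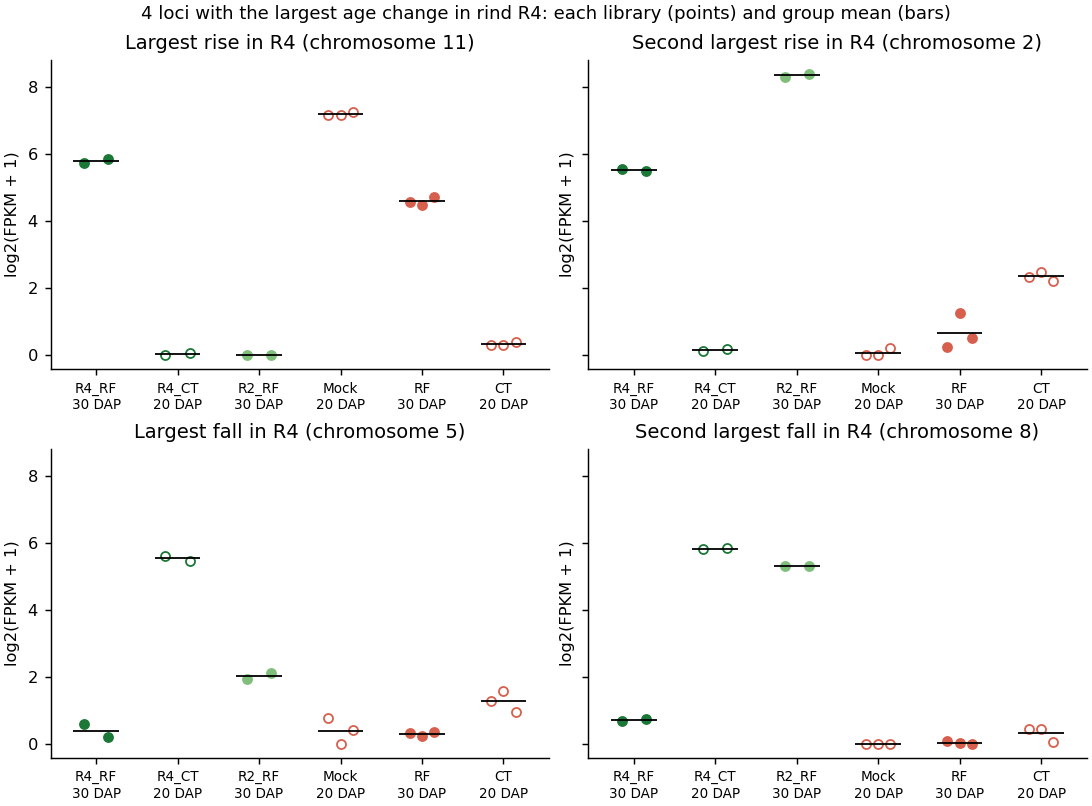
Level of the 4 loci with the largest age change in rind R4, as log2(FPKM + 1), in each library (points) of R4_RF, R4_CT, R2_RF, Mock, RF and CT, with the group mean as a bar. The R4 libraries of the 2 ages do not overlap at any of the 4 loci, and R2_RF stands at 0 for the largest rise and at 328 FPKM for the second.

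The 6 loci among the 5 highest of either age changed by less than 2-fold, with 1 exception. The highest locus at 30 DAP was chr8:4243307-4243756, at 18277 and 17792 FPKM in R4_RF, against 14856 and 13364 FPKM in R4_CT (log2 fold change 0.36 ± 0.04 SE, limma adjusted p = 2.87e-05). The highest locus at 20 DAP was chr5:5830958-5832520, at 12413 and 12839 FPKM in R4_RF, against 16221 and 16840 FPKM in R4_CT (limma, adjusted p = 6.04e-08, log2 fold change -0.39 ± 0.03 SE). At chr1:14395071-14396092, the fourth highest at both ages, the log2 fold change was 0.04 ± 0.03 SE and did not pass the test (limma adjusted p = 0.345), with 11229 and 11461 FPKM in R4_RF, against 11348 and 10754 FPKM in R4_CT. Rises were found at chr9:9611770-9612140, with 11809 and 11819 FPKM in R4_RF, against 7679 and 7303 FPKM in R4_CT (limma adjusted p = 8.38e-10), and at chr10:33764629-33765276, with 7330 and 7135 FPKM in R4_RF, against 4214 and 3850 FPKM in R4_CT (limma adjusted p = 2.82e-08). Both means were higher in R4_RF than in R2_RF, Mock and the 5 flesh stages, with 2074 FPKM in R2_RF and 3282 FPKM in Mock at the first, and 1606 FPKM in R2_RF and 4587 FPKM in Mock at the second. The exception was chr6:7824799-7825077, a short locus that held 3201 and 2962 FPKM in R4_RF, against 14687 and 13520 FPKM in R4_CT (limma, adjusted p = 9.81e-13, log2 fold change -2.19 ± 0.04 SE). This was the third highest locus of R4 at 20 DAP and 14th at 30 DAP. In R2_RF it reached 34276 ± 488 FPKM (SD, n = 2), while Mock flesh held 12.9 FPKM.

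The age change of R4 was set beside the flesh stages, whose libraries are separate from those of R4. For each flesh step, loci were taken whose stage means differed by at least 2-fold, a split chosen after the data had been seen. Of the 845 tested loci higher in flesh at 20 DAP than at 10 DAP, 624 rose in R4 from 20 to 30 DAP (73.8%, against 26.1% of all tested loci) and 83 fell (9.82%, against 27.9%). Of the 2013 loci lower in flesh at 20 than at 10 DAP, 1481 fell in R4 (73.6%) and 138 rose (6.86%). With CT as the flesh of 20 DAP, the flesh step of matching age gave lower shares in the same directions. Of the 849 loci higher in flesh at 30 than at 20 DAP, 49.5% rose in R4 and 23.8% fell, and of the 679 loci lower in flesh, 60.2% fell and 16.1% rose. For the earlier steps both classes leaned towards falls in R4, with 34.6% and 42.3% falling among loci higher and lower at 5 than at 0 DAP, and 43.9% and 48.0% among loci higher and lower at 10 than at 5 DAP. The shares that rose were 30.2% and 21.0%, and 35.2% and 20.3%. Among loci higher in flesh at these steps, both directions were thus above the share over all loci.

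The 845 loci higher in flesh from 10 to 20 DAP had a median of 39.4 FPKM in R4_RF and 22.9 FPKM in R4_CT, next to 9.06 FPKM in BW, 36.7 FPKM in CT and 47.3 FPKM in RF flesh. The 2013 loci lower in flesh at that step had a median of 5.02 FPKM in R4_RF and 10.5 FPKM in R4_CT, next to 13.9 FPKM in BW, 3.14 FPKM in CT and 2.62 FPKM in RF flesh. The R2_RF medians were 15.5 FPKM in the first class and 7.07 FPKM in the second, so by median both R4_CT and R2_RF lay between BW and CT. The classes were chosen for a gap between BW and CT, so nothing particular to R4 is read from that place. Rind and stage flesh were written in different number formats, so these levels are set side by side without a test. Across 16192 loci the log2 change of R4 had a Pearson correlation of 0.56 (Spearman 0.53) with the flesh step from 10 to 20 DAP and of 0.26 (Spearman 0.23) with the step from 20 to 30 DAP, and of 0.04 with each of the 2 earlier steps. Loci are not independent replicates, the last 2 flesh steps share the CT libraries, and the difference between these correlations was not tested.

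**Figure D3:**
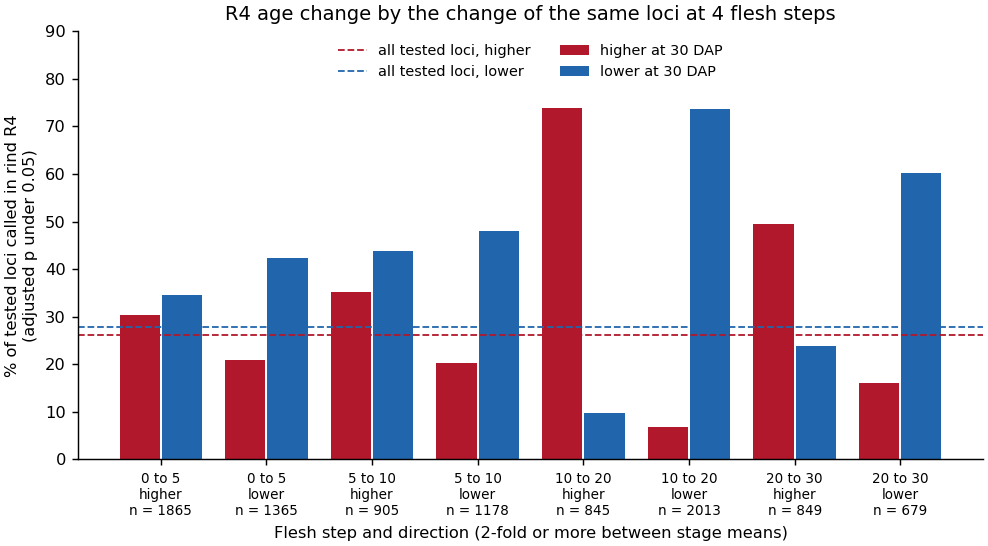
Share of tested loci called higher and lower in rind R4 at 30 against 20 DAP (limma, adjusted p under 0.05), in percent, for loci that were at least 2-fold higher or lower at each of 4 flesh steps, with n loci per class and dashed lines for all tested loci. The classes of the 10 to 20 DAP flesh step stand furthest apart, with 73.8% rising among loci higher in flesh and 73.6% falling among loci lower in flesh.

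These shares depended partly on which flesh stood for 20 DAP. With Mock flesh in place of CT, 46.8% of 3191 loci higher than at 10 DAP rose in R4, and 63.1% of 2722 loci lower fell. For rises, 46.8% lies below the 49.5% of the step from 20 to 30 DAP, but that step was taken with CT. It was not computed with Mock, so the order of the 2 steps with Mock is not known. The BW and Mock libraries also differ in number format and perhaps in handling. With median-of-ratios scaling of the BW and CT libraries, the shares were 71.9% of 1116 loci and 76.1% of 1638 loci.

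Grouped by the flesh stage of their highest mean, loci that peaked at 10 DAP fell most often in R4. Of 1118 such loci 698 fell (62.4%, against 27.9% of all tested loci) and 118 rose. Loci highest in flesh at 30 DAP rose in R4 in 1351 of 2394 cases (56.4%, against 26.1%), and loci highest at 20 DAP in 469 of 905 (51.8%). Among the 6169 loci whose flesh stages differed by less than 2-fold, 60 rose and 169 fell in R4 by at least 2-fold, which is 0.97% and 2.74% of them, against 3.21% and 8.10% of all tested loci.

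R4 was next placed between 2 other groups written in the same number format, Mock flesh and R2 rind. Mock and R2_RF differ in tissue, in age and perhaps in handling, and the labels give no cultivar for Mock. These cannot be told apart in any difference between them. Libraries of R4_RF correlated with Mock flesh at 0.9416 to 0.9435 and with R2_RF at 0.9343 to 0.9356 on the log2(FPKM + 1) scale, and libraries of R4_CT with Mock at 0.9074 to 0.9106 and with R2_RF at 0.9505 to 0.9519. With RF flesh the correlations were 0.9243 to 0.9249 for R4_RF and 0.8889 to 0.8903 for R4_CT. Libraries of R4 at 30 DAP were thus nearer to Mock and RF flesh than those of R4 at 20 DAP were. They were also further from R2_RF, the R2 rind of 30 DAP. Mock itself correlated with CT flesh at 0.9226 to 0.9278 and with RF flesh at 0.9333 to 0.9357. Both ranges lie below that of Mock with R4_RF, so Mock is not taken as typical of stage flesh. These correlations run across all loci and carry no test.

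Loci that set Mock and R2_RF apart were then followed in R4. A list of 57 loci at 50 FPKM or more in Mock and under 1 FPKM in R2_RF had a median of 21.9 FPKM in R4_RF and 6.76 FPKM in R4_CT. The median of the list was 107 FPKM in Mock, but 44.0 FPKM in RF and 21.8 FPKM in CT flesh. Their summed level was 2397 to 2435 FPKM in R4_RF and 897 to 932 FPKM in R4_CT, next to 11802 to 12101 FPKM in Mock and 22.3 to 22.7 FPKM in R2_RF. The R4_RF mean was above the R4_CT mean at 51 of the 57 loci. The filter on low values passed 53 of them, of which limma called 42 higher (79.2%, against 26.1% of all tested loci) and 6 lower (11.3%, against 27.9%). A 2-fold change or more was found at 32 higher and 3 lower loci, 60.4% and 5.66% of those tested, against 3.21% and 8.10% of all. The median log2 fold change of those 53 was 1.22, against 0.01 over all tested loci, and single members ran from -1.72 to 5.77. The mean was under 1 FPKM for 4 of the 57 loci in R4_RF and for 11 in R4_CT.

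The reverse list held 33 loci at 50 FPKM or more in R2_RF and under 1 FPKM in Mock, and all were tested. Their median was 12.8 FPKM in R4_RF and 28.4 FPKM in R4_CT, and their summed level 960 to 983 FPKM in R4_RF and 1442 to 1474 FPKM in R4_CT, next to 5037 to 5145 FPKM in R2_RF and 6.35 to 8.17 FPKM in Mock. Of these, 19 fell (57.6%, against 27.9% of all tested loci) and 12 rose (36.4%, against 26.1%), so both directions were above the share over all loci. A 2-fold change or more was found at 14 lower and 5 higher loci, 42.4% and 15.2%, against 8.10% and 3.21% of all. The median log2 fold change was -0.75, with a range of -4.71 to 5.37. The locus at chr2:2318647-2319172, described above, is the member with the largest rise. Both lists were thus measured in R4 at both ages, so the R4 rind carried transcripts of both kinds, and the share of each that comes from cells of adjoining tissue in the sample was not tested. In bulk samples, fewer cells of a type and less RNA per cell cannot be told apart.

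**Figure D4:**
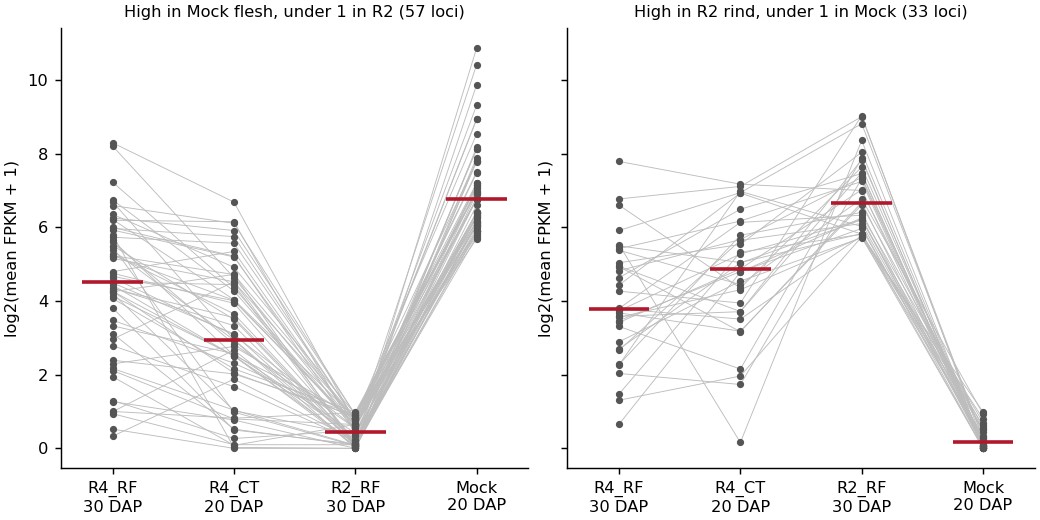
Level of the members of both lists, as log2(mean FPKM + 1), in R4_RF, R4_CT, R2_RF and Mock (left, 57 loci high in Mock flesh and under 1 FPKM in R2; right, 33 loci high in R2 rind and under 1 FPKM in Mock). Grey lines join the values of a locus and red bars mark the medians, which in R4_RF and R4_CT were 21.9 and 6.76 FPKM on the left and 12.8 and 28.4 FPKM on the right.

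The comparison was extended to all tested loci, where rises were graded on the Mock side but not on the R2 side. Classes of the difference between Mock and R2_RF were set after the data had been seen. Of the 209 loci at least 16-fold higher in Mock, 154 rose in R4 (73.7%, against 26.1% of all tested loci) and 23 fell. Among loci higher in Mock by 4- to 16-fold and by 2- to 4-fold, 54.3% and 43.5% rose. Within 2-fold, 23.4% of 10325 loci rose and 22.4% fell. Of the 184 loci at least 16-fold higher in R2_RF, 121 fell in R4 (65.8%, against 27.9%) and 42 rose (22.8%). Among loci higher in R2_RF by 4- to 16-fold, 68.1% fell and 13.4% rose. By 2- to 4-fold, 51.3% fell and 13.5% rose. Seen from the R4 calls, the R2_RF mean exceeded the Mock mean at 1013 of the 1315 loci that fell by at least 2-fold (77.0%) and at 149 of the 521 that rose by as much (28.6%), against 51.0% of all tested loci.

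**Figure D5:**
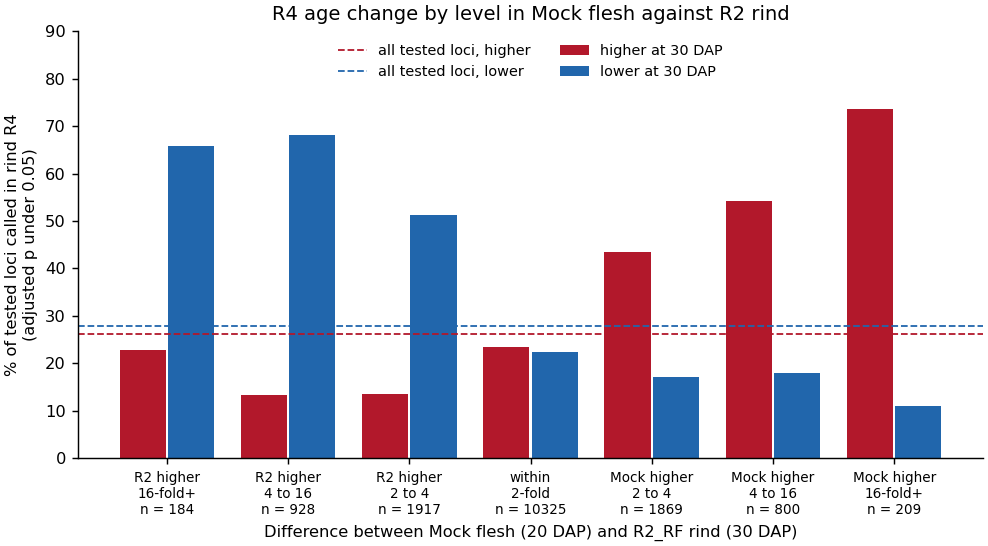
Share of tested loci called higher and lower in rind R4 at 30 against 20 DAP (limma, adjusted p under 0.05), in percent, by the difference between Mock flesh and R2_RF rind on the log2(FPKM + 1) scale, with n loci per class and dashed lines for all tested loci. The share called higher was 22.8% where R2 was at least 16-fold higher and 73.7% where Mock was at least 16-fold higher. It was lower, at 13.4% and 13.5%, where R2 was higher by 4- to 16-fold and by 2- to 4-fold.

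Whether the change from 20 to 30 DAP differed between R4 rind and stage flesh was tested as an interaction over 16644 loci. The change was more upward in R4 than in flesh at 3718 loci (22.3%) and more downward at 4982 (29.9%; limma, adjusted p under 0.05), together 52.3% of those tested, and with a difference of 2-fold or more at 895 (5.38%) and 1713 (10.3%). Of the 1311 loci with a 2-fold fall in R4 that entered this test, 1094 fell more in R4 than in flesh, and of the 519 with a 2-fold rise, 368 rose more in R4. These loci were picked by the same R4 difference that enters the interaction. A majority in these directions is therefore largely built in, and nothing about rind against flesh is read from it. Within flesh, limma called 35.4% of 14818 loci higher and 27.7% lower in RF than in CT, 63.1% in all, and 6.16% and 4.74% with a change of 2-fold or more. Tested in both tissues, 833 loci rose by at least 2-fold in flesh. Of these, 162 rose by as much in R4 (19.4%, against 3.21% of all tested loci) and 71 fell (8.52%, against 8.10%). Among 659 loci that fell in flesh by as much, 207 fell in R4 by at least 2-fold (31.4%) and 19 rose (2.88%). Changes in opposite directions were thus near the share over all loci. A further 1830 loci tested in R4 were not tested in flesh. Of those, 419 fell by at least 2-fold in R4 (22.9%) and 44 rose (2.40%). The interaction rests on the CT libraries as the flesh of 20 DAP. With Mock in their place, 6594 loci were more upward in R4 and 5141 more downward, with a difference of 2-fold or more at 2926 and 2019. Of the 1713 loci more downward by at least 2-fold with CT, 1267 were called the same way with Mock and 199 the opposite way, and of the 877 more upward loci that could be tested with Mock, 693 and 71. The RF and Mock libraries differ in number format and perhaps in handling, so that alternative is not free of either difference.

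The loci with the largest interaction ran in opposite directions in the 2 tissues or changed in 1 of them. At chr6:26539192-26540035 the R4 rind fell, with 1.59 and 1.44 FPKM in R4_RF, against 15.9 and 14.1 FPKM in R4_CT, while flesh rose, with 30.1 ± 1.09 FPKM in RF, against 1.10 ± 0.36 FPKM in CT (SD, n = 3 each; interaction -6.57 ± 0.18 SE on the log2 scale, limma adjusted p = 6.79e-09). At chr11:1901495-1903825 the level was 0 and 0.099 FPKM in R4_RF, against 1.34 and 0.889 FPKM in R4_CT, and 39.4, 41.6 and 40.7 FPKM in RF, against 0.216, 0.045 and 0.040 FPKM in CT (interaction -6.25 ± 0.17 SE, limma adjusted p = 6.37e-09). With a pseudocount of 0.1 that interaction was -10.85. On the upward side stood chr2:2318647-2319172, with 0.184, 1.38 and 0.415 FPKM in RF, against 4.07, 4.65 and 3.63 FPKM in CT (interaction 7.06 ± 0.34 SE, limma adjusted p = 2.46e-07). At chr11:11861823-11863862 the R4 level was 13.2 and 11.6 FPKM in R4_RF, against 13.4 and 10.8 FPKM in R4_CT, and flesh held 4.35, 3.36 and 4.06 FPKM in RF, against 258, 217 and 272 FPKM in CT (interaction 5.70 ± 0.18 SE, limma adjusted p = 1.76e-08). Mock flesh of 20 DAP stood at 0.899 ± 0.732 FPKM there (SD, n = 3), and with Mock in place of CT that interaction turned to -1.40 (limma adjusted p = 0.00752).

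Calls in R4 were spread over the genome. The share that fell by at least 2-fold lay between 6.72% on chromosome 11 and 9.37% on chromosome 3, and the share that rose by as much between 1.97% on chromosome 11 and 4.11% on chromosome 6. Level and length moved with the calls, and their part in them was not tested. Among the 5954 tested loci with an R4 mean of 1 to 10 FPKM, 676 fell by at least 2-fold (11.4%, against 8.10% of all tested loci) and 169 rose by as much (2.84%, against 3.21%). Among the 1522 loci of 100 to 1000 FPKM, 87 fell (5.72%) and 76 rose (4.99%). Of the 274 tested loci with an R4 mean under 1 FPKM, 62 fell by at least 2-fold (22.6%) and 10 rose (3.65%). The loci that fell and rose by at least 2-fold had median lengths of 1752 and 2016 bp, against 2720 bp over all tested loci. Of the 1175 loci longer than 10000 bp, 1.87% fell and 1.62% rose by at least 2-fold, and of the 1304 loci of up to 500 bp, 11.1% and 5.98%.

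Neighbouring loci were followed along the chromosomes. The longest run of adjacent loci called in one direction lay at chr1:33998283-34068103, where 10 loci in a row fell, with log2 fold changes from -2.59 to -0.19. The other long runs of falls were 9 loci at chr7:3821581-3928044 and 7 loci at chr8:23022086-23102402. Runs of rises reached 7 loci at chr6:28299236-28345498, with log2 fold changes from 0.20 to 0.65, and 5 further runs held 6 loci, among them those at chr9:3583262-3604274 and at chr5:6651065-6685261. How many such runs the order of loci would give without any link between neighbours was not tested, and 27.9% of all tested loci were called lower and 26.1% higher.

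With a limit of 2-fold, chosen after the data had been seen, runs were at most 4 loci long, and that length was reached by 4 runs of falls and 1 of rises. At chr9:37049193-37058530 the first 3 loci fell together by nearly the same amount, with means of 28.3, 25.1 and 26.6 FPKM in R4_RF, against 452, 338 and 348 FPKM in R4_CT, and log2 fold changes of -3.95, -3.70 and -3.66 (limma adjusted p at most 1.41e-14). The fourth locus of that run was at 37.1 FPKM in R4_RF, against 136 FPKM in R4_CT. Whether these loci are copies of one another that share reads was not analysed here. The run of rises lay at chr9:6696701-6718620, with means of 37.8, 12.7, 1000.3 and 20.2 FPKM in R4_RF, against 11.6, 3.02, 289 and 2.92 FPKM in R4_CT, and log2 fold changes from 1.62 to 2.44 (limma adjusted p at most 5.47e-08). All 4 of its loci were at 21.5 FPKM or more in Mock flesh and at 3.80 FPKM or less in R2_RF.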

How the data were processed

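Each library's file holds the FPKM the authors deposited, per the file headers, values that are scaled to locus length and library total. Among tools, fastp, HISAT2 and SAMtools 1.5 appear in the submitters' processing notes. How FPKM were computed, and on which annotation, is not given in the sources used here. RNA was extracted with Trizol and treated with DNase I, per the labels' protocols.

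Group differences came from limma 3.58.1 under R 4.3.3 (empirical Bayes with trend and robust options, two-sided, Benjamini-Hochberg adjustment over all loci tested, threshold 0.05) on log2(FPKM + 1), a scale that understates changes of low loci. The R4 fit took the 6 rind libraries (3 residual degrees of freedom) and loci at 1 FPKM or more in at least 2 of the 4 R4 libraries. The interaction took R4_RF, R4_CT, RF and CT (10 libraries, 6 degrees of freedom) and loci at 1 FPKM or more in at least 2 of them. Both were also run on simulated libraries with known changes at few loci and independent noise. That setting differs from these data, where 54.0% of loci were called in R4, so it does not measure error rates here.

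Rows were checked in blocks of 50 loci by correlation within groups. The R4 blocks correlated at 0.882 or more. The 50 loci of a CT replicate 1 block at 0.708 were left out of flesh fits and classes, PD replicate 3 was left out because over 233 of 452 blocks its rows did not match the other replicates, and the 3 AP files were not used. No 2 R4 libraries held identical values. Rind, Mock and 5_Aza libraries keep more decimals than the stage libraries.

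Named loci were those with the largest change in each direction among calls whose libraries do not overlap, whose higher group averaged 10 FPKM or above (for the interaction, any of its 4 groups), the 5 highest loci of each R4 group, and the longest runs. The comparison, lists and rules were chosen with earlier results of these data known. The gene lists by product that had been planned could not be applied, since loci carry no gene names.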

Additional observations from a re-analysis of the deposited data

Results flagged for a closer look

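The interaction test was looked up for the loci named by change, interaction or level, and not for members of runs. The change from 20 to 30 DAP differed between R4 rind and stage flesh at 11 of these (limma adjusted p under 0.05). Those that did not pass were chr8:4243307-4243756 and chr1:14395071-14396092 (limma adjusted p = 0.715 and 0.223). Over all loci tested the share was 52.3%. Several of the 11 were named for a large interaction or a large R4 change, so their passing was in part built in. The R4 change was more upward at chr2:2318647-2319172 (7.06 on the log2 scale), chr11:11861823-11863862 (5.70), chr11:753705-756885 (1.51), chr10:33764629-33765276 (0.78) and chr9:9611770-9612140 (0.73). It was more downward at chr6:26539192-26540035 (-6.57), chr11:1901495-1903825 (-6.25), chr8:21133853-21136470 (-4.86), chr5:28240188-28241114 (-4.18), chr6:7824799-7825077 (-0.83) and chr5:5830958-5832520 (-0.24). With Mock as the 20 DAP flesh, 10 of the 11 kept their direction and their call. The exception was chr11:11861823-11863862. The difference at chr11:753705-756885 was 8.37 with Mock, and that locus stood at 146 FPKM in Mock flesh and at 0.263 FPKM in CT flesh. At chr6:7824799-7825077 it was -4.08 with Mock.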

How the results depend on the processing

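Alternatives (pseudocount 0.1, no filter or 5 FPKM, median-of-ratios scaling, other libraries in the fit, each replicate left out and, for R4, equal library sums) were run for the counts of calls in R4 and in the interaction, for the counts of both lists, of the extreme classes of Mock against R2, of the 10 to 20 DAP flesh classes and of loci changed in flesh, for the longest runs, and for the named loci. Level, length, chromosome and flesh-peak classes and the correlations were not recomputed. Apart from the results with Mock below, these counts stayed within 1.5 times their values, and each named locus called as reported kept its direction and call wherever it could be tested. Both largest rises could not be tested without an R4_RF replicate, nor both largest falls without an R4_CT replicate, since the filter asks for 2 R4 libraries. At chr1:14395071-14396092, which was not called, the log2 fold change was -0.00052 without R4_CT replicate 2. With Mock in place of CT, 6594 loci were more upward in R4 than in flesh, against 3718 with CT, and 2926 against 895 by at least 2-fold, and the difference at chr11:11861823-11863862 turned to -1.40, since that locus stood at 249 FPKM in CT and 0.899 FPKM in Mock. Leaving out 1 R4 library gave 457 to 567 loci higher and 960 to 1354 lower by at least 2-fold, and 3240 to 4158 and 3188 to 4015 at any size. Without a fold limit the direction that prevails depends on the setting: rises were 48.4% of calls as reported, 51.9% with median-of-ratios scaling and 56.6% without R4_CT replicate 2. At a pseudocount of 0.1 the log2 fold change of chr11:753705-756885 was 8.87, and the interaction of chr11:1901495-1903825 was -10.85. Same-numbered libraries of the rind groups are not stated to be paired, and their replicate differences correlated at 0.04 (R4_RF and R4_CT), 0.01 and 0.13. With the replicate number as a block, 523 loci were higher and 1316 lower by at least 2-fold, and 897 and 1707 in the interaction. Depth is unknown and limits low loci most.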
